A study of Mus musculus with 21 samples.

Results

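Thyroid tissue of C57BL/6J mice at the labelled time of 1 week was compared between mice injected with the empty pLIVE vector (Empty) and mice injected with pLIVE vectors carrying TSHB and CGA, the subunits of thyrotropin (TSH). Members were taken from the labels: 3 Empty and 3 TSH libraries, 6 of the 21 libraries in the series. All animals, controls included, carry the label of hyperthyroidism induction. The pLIVE vector was made for expression in the liver, from where the hormone would reach the thyroid through the blood. Tshb and Cga had 0 counts in each of the 6 libraries (up to 3 counts per library allowed), which gives no check of the vector. The age and sex of the animals and the number behind each library are not given in the labels used here. Nothing in the labels says that each library came from its own animal, and the p-values therefore rest on the variation among libraries, part of which may be technical. Another group of the same week, TSH with thiamazole (TSH-MMI, 3 libraries), was not compared here. It entered the fit for the estimate of the spread, and thereby also the filter on low counts and the scaling of the libraries.

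TSH binds its receptor on the basal side of thyroid follicular cells and raises cAMP, which drives iodide uptake, hormone synthesis and the uptake and proteolysis of thyroglobulin. Held high for long, it also makes follicular cells divide, and the gland grows into a goitre together with its capillaries and stroma. Because a gland holds follicular cells, C cells, vessels, fibroblasts and macrophages, and a dissection can carry parathyroid, thymus, muscle and cartilage along, a bulk library sums all of them. Fewer cells of a type and less RNA per cell cannot be told apart in such data.

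The 6 libraries held 33962440 to 50646491 counts. Thyroglobulin (Tg), the scaffold protein of thyroid hormone synthesis, made up 24.5% ± 1.75 of counts in Empty and 20.4% ± 2.29 in TSH (mean ± SD, n = 3) and was thus abundant in all 6 libraries. The summed CPM (read counts brought to a common library size by TMM) of 18 skeletal muscle markers was 40.3, 1371 and 2313 in Empty and 1167, 269 and 5725 in TSH. Muscle transcripts were nearly missing from Empty replicate 1 and highest in TSH replicate 3, with the groups overlapping. The 14 markers of immature thymocytes summed to 16.3, 16.5 and 347 in Empty and 17.3, 17.8 and 15.8 in TSH. Rag1, a recombinase of developing lymphocytes, stood at 76.1 CPM in Empty replicate 3 and had 0 counts in the other 5 libraries. The 4 parathyroid markers summed to 13140.1, 5793 and 10582 in Empty and 5404, 1408 and 2972 in TSH. A granule protein gene among them is also in the C cell list, so the sum does not measure parathyroid cells alone. That gene stood at 9480, 3729 and 7874 CPM in Empty and 3684, 427 and 2002 CPM in TSH. None of the 3 marker lists had a called member, while the parathyroid sum was lowest in TSH replicate 2 and each TSH library lay below each Empty library.

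Of 16956 genes tested by edgeR, 2510 (14.8%) were higher and 1584 (9.34%) lower in TSH at an adjusted p under 0.05. At least 2-fold changes were found for 702 of the higher and 315 of the lower genes, and at least 4-fold changes for 230 and 38. The median log2 fold change (log2FC) over all genes tested was -0.00468, a value that the TMM scaling holds near 0. It does not set a baseline for lists of abundant genes. Of 1394 genes averaging 100 CPM or more, ribosomal protein genes left out, 30.5% were called higher and 9.33% lower (median log2FC 0.09). Among the gene lists examined, most tested members were called higher in those of cell division, fibrillar collagens, macrophages, endothelium, cathepsins and NRF2 targets, and most were called lower in those of cytosolic ribosomal proteins and C cells. Without TSH replicate 3, the library with most muscle, edgeR called 1795 higher and 854 lower, and without Empty replicate 1 it called 1893 and 947. TSH-MMI replicate 2, in the fit but not compared, also carried thymocyte transcripts. Without it and Empty replicate 3, edgeR called 2365 higher and 1491 lower.

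**Figure D1:**
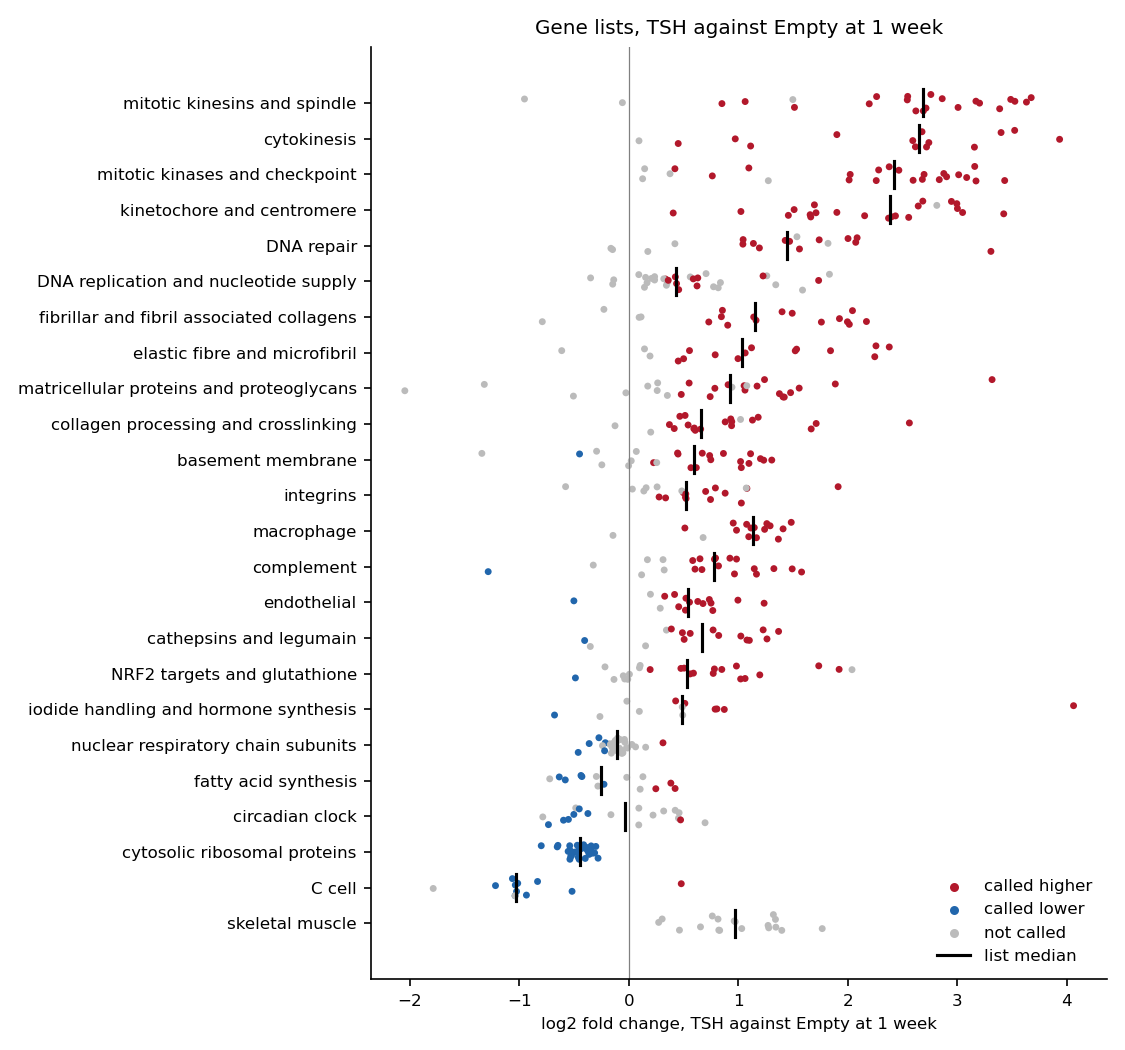
log2 fold change of each tested member (points) of 24 gene lists in TSH against Empty at 1 week, with the list median as a black bar and colour for genes called at an adjusted p under 0.05. Division lists have medians from 2.39 to 2.69, the 30 ribosomal protein genes all lie between -0.80 and -0.28, and the skeletal muscle markers are all uncalled.

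The 4 lists of cell division genes had the highest medians of log2FC of all lists with more than 1 tested gene. The promoter windows of the division genes are shown first because many of them share sequence elements. Genes that peak in mitosis are known to be held down in resting cells through the CHR element (TTTGAA) and raised in cycling cells through CCAAT boxes bound by NF-Y. In RefSeq windows (GRCm38.p6), searched on both strands over the 250 bases before the annotated start, CCAAT was found in 45 of 69 promoters of division genes (65.2%), against 36.0% of the promoters of 12667 tested genes. TTTGAA was found in 19 of them (27.5%) against 11.1%, and both in 15 (21.7%) against 4.40%. CCAAT was as frequent in the list of DNA replication and nucleotide supply, in 17 of 26 windows (65.4%). In that list TTTGAA was found in 4 windows (15.4%) and both in 3 (11.5%). Of the 83 genes in the 4 division lists, 69 had a window. The following are windows of 4 division genes with small p that hold both elements. Not all chromosomes were open to this choice, so division genes with a smaller p may be missing. CCAAT and TTTGAA, or their reverse complements, are in capitals. None of these matches overlap each other.
Ckap2l, chr2:129297213-129297462, minus strand: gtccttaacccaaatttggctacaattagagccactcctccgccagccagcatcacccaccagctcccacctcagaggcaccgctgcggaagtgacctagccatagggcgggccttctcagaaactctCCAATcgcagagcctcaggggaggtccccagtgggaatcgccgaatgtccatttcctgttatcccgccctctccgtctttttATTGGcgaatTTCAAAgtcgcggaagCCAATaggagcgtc
Kif22, chr7:127042421-127042670, minus strand: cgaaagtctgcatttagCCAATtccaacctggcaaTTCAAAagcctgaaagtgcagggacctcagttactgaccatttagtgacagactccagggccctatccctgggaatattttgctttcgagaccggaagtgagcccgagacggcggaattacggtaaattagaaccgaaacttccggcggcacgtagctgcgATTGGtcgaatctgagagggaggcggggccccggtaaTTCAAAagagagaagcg
Ckap2, chr8:22185820-22186069, minus strand: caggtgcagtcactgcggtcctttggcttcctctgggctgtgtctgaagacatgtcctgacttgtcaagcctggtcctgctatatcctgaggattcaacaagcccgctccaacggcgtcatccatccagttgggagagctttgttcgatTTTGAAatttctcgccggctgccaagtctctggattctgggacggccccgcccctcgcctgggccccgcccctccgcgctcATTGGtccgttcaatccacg
Depdc1a, chr3:159495183-159495432, plus strand: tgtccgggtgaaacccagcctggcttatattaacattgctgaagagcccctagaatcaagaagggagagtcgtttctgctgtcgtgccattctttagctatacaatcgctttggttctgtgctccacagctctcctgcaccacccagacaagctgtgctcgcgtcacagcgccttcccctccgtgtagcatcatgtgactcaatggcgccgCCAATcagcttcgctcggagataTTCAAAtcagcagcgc
Ckap2l and Ckap2 encode spindle proteins, Kif22 a chromosome-arm kinesin and Depdc1a a mitotic protein. A match is a string of letters, not a binding site.

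The genes behind these windows, which were chosen by their small p in this comparison, were far higher in TSH. Ckap2 stood at 0.791, 0.909 and 1.8 CPM in Empty and 13.2, 17.3 and 14.4 CPM in TSH, a 12.8-fold rise (log2FC 3.67, SE 0.28, edgeR adjusted p = 1.78e-05). Kif22 stood at 1.05, 1.27 and 1.9 CPM in Empty and 9.47, 10.8 and 8.44 CPM in TSH (log2FC 2.76, SE 0.23, edgeR adjusted p = 1.32e-05). Ckap2l stood at 2.08, 1.33 and 2.83 CPM in Empty and 14.2, 15.7 and 15.7 CPM in TSH (log2FC 2.86, SE 0.21, edgeR adjusted p = 6.64e-06). Depdc1a, at the lowest level of the 4, stood at 0.158, 0.182 and 0.344 CPM in Empty and 2.45, 3.15 and 2.4 CPM in TSH (log2FC 3.52, SE 0.31, edgeR adjusted p = 1.81e-05). In all 4 the groups were apart, and Empty replicate 3 was the highest of the Empty libraries.

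All steps of mitosis were represented. Of the mitotic kinases and checkpoint genes 20 of 24 rose (median log2FC 2.42), of the kinetochore genes 21 of 22 (2.39), of the mitotic kinesins and spindle genes 20 of 23 (2.69) and of the cytokinesis genes 13 of 14 (2.65), with none lower. Iqgap3, a scaffold that binds small GTPases and calmodulin, rose most among them: it stood at 2.48, 1.73 and 2.65 CPM in Empty and 29.3, 39.4 and 36.4 CPM in TSH, 15.3-fold higher (log2FC 3.93, SE 0.18, edgeR adjusted p = 4.29e-07). Kif20a, the kinesin of the central spindle, stood at 1.45, 1.7 and 2.62 CPM in Empty and 20.6, 23.9 and 22 CPM in TSH (log2FC 3.53, SE 0.20, edgeR adjusted p = 1.67e-06). Aurka, the centrosome kinase, rose from 1.56 ± 0.621 to 7.61 ± 0.941 CPM (log2FC 2.28, SE 0.23, edgeR adjusted p = 5.85e-05). Foxm1, a transcription factor that switches on mitotic genes, rose from 2.55 ± 0.985 to 12.2 ± 1.9 CPM (log2FC 2.26, SE 0.23, edgeR adjusted p = 6.66e-05). Nuf2, which links kinetochores to microtubules, and Sgo2a, which guards centromeric cohesion, had log2FC 3.0 with adjusted p = 3.89e-05 and log2FC 2.4 with adjusted p = 6.6e-06. Plk1, the polo kinase, was 2.57 CPM in Empty replicate 3 against 1 and 0.545 CPM in the other Empty libraries, and between 13.3 and 17.4 CPM in TSH (log2FC 3.43, SE 0.45, edgeR adjusted p = 0.0014).

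Genes of S phase moved less, and Empty replicate 3 decided many of their calls. Of 32 genes of DNA replication and nucleotide supply 10 rose and none fell (median log2FC 0.43). Without Empty replicate 3, 24 of 32 rose (median 0.59), where 14.1% of all genes were called higher and 9.75% lower. Tk1, thymidine kinase, stood at 3.77, 3.73 and 5.37 CPM in Empty and 8.15, 12.5 and 9.49 CPM in TSH (log2FC 1.23, SE 0.19, edgeR adjusted p = 0.000755). Rrm1, the large subunit of ribonucleotide reductase, stood at 29.1, 27 and 37.7 CPM in Empty and 43.9, 50.1 and 47.1 CPM in TSH (log2FC 0.59, SE 0.11, edgeR adjusted p = 0.00289). Both were highest in Empty replicate 3 among the Empty libraries. Rrm2, the small subunit, was chosen after its values were seen as an example of a gene not called with all 6 libraries and called without this one: it stood at 1.53, 1.09 and 6.14 CPM in Empty and 10.7, 10.9 and 9.77 CPM in TSH (log2FC 1.83, SE 0.58, edgeR adjusted p = 0.0614), and without that library the log2FC was 2.98 (adjusted p = 9.16e-07). Uhrf1, which keeps DNA methylation through replication and was also chosen afterwards, stood at 7.09, 5.58 and 17.8 CPM in Empty and 16.4, 19.5 and 18.5 CPM in TSH, so that the groups overlapped. The thymocyte markers given above are high in the same library, and the part of thymocytes in these values was not tested.

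**Figure D2:**
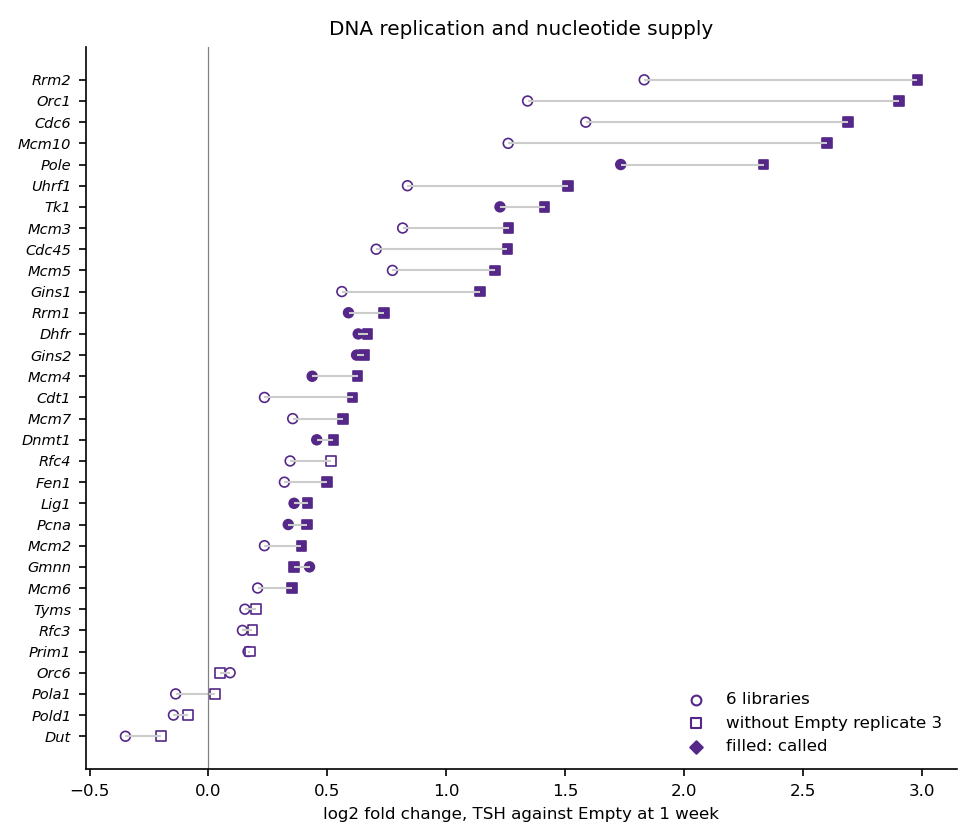
log2 fold change of the 32 genes of DNA replication and nucleotide supply with all 6 libraries (circles) and without Empty replicate 3 (squares), filled where called. Filled circles number 10 and filled squares 24, and Rrm2 moves from 1.83 to 2.98.

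The G1 list and DNA repair followed. Of 25 G1 cyclins, kinases and inhibitors 10 rose and 1 fell. Ccnd1, cyclin D1, stood at 103, 97.1 and 113 CPM in Empty and 218, 277 and 303 CPM in TSH, 2.55-fold higher (log2FC 1.35, SE 0.14, edgeR adjusted p = 0.000126). Ccne2, a cyclin E, rose from 0.568 ± 0.138 to 2.35 ± 0.11 CPM (log2FC 2.05, SE 0.24, edgeR adjusted p = 0.000138). E2f8, an atypical repressor of E2F targets, rose (log2FC 1.61, SE 0.28, edgeR adjusted p = 0.0016). The p21 inhibitor gene Cdkn1a rose as well (log2FC 0.98, SE 0.16, edgeR adjusted p = 0.0023). The member that fell was Cdkn1c, the p57 inhibitor (log2FC -0.61, SE 0.15, edgeR adjusted p = 0.0133), whose adjusted p reached 0.0505 at 1 of 17 other settings. Of 18 DNA repair genes 12 rose (median log2FC 1.45), among them Fanca of the Fanconi anaemia core complex (log2FC 2.07, SE 0.29, edgeR adjusted p = 0.000484). Of 16 replication dependent histone genes 9 were not tested and none of the 7 tested was called. The 16 summed to only 24.6 to 38.2 CPM per library in this poly(A) sequencing, which leaves little to judge them by. Of 20 ribosome biogenesis genes 1 was called, Dkc1, which was lower and lost its call at 9 of 17 other settings.

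In the thyroid's own pathway the changes went both ways. Of 12 tested genes of iodide handling and hormone synthesis 6 rose and 1 fell, and of 8 deiodinases and hormone transporters 3 rose and 2 fell. Slc26a4, the apical anion exchanger pendrin, stood at 0.369, 0.212 and 0.317 CPM in Empty and 4.39, 5.02 and 5.84 CPM in TSH (log2FC 4.06, SE 0.28, edgeR adjusted p = 4.19e-06), the highest fold of these lists from a low level. Tshr, the receptor itself, stood at 82.8, 84.8 and 96.5 CPM in Empty and 192, 234 and 233 CPM in TSH (log2FC 1.32, SE 0.09, edgeR adjusted p = 4.24e-06). Slc5a5, the sodium iodide symporter, stood at 238, 229 and 182 CPM in Empty and 350.1, 433 and 406 CPM in TSH (log2FC 0.87, SE 0.11, edgeR adjusted p = 0.000369). For both, each TSH library was above each Empty library. The member that fell was Slc5a8, an apical monocarboxylate transporter, at 99.95, 113 and 86.8 CPM in Empty and 68.9, 56.4 and 61.9 CPM in TSH (log2FC -0.68, SE 0.10, edgeR adjusted p = 0.000789). Dio3, the deiodinase that inactivates thyroid hormone, was chosen after its values were seen. It rose from 0.182 ± 0.0475 to 0.768 ± 0.217 CPM (log2FC 2.05, SE 0.49, edgeR adjusted p = 0.00992), from a very low level, and lost its call at 1 of 17 other settings. Slc16a10, which carries thyroid hormone and aromatic amino acids across membranes, was lower (log2FC -0.64, SE 0.12, edgeR adjusted p = 0.00269). Iyd, which recovers iodide from iodotyrosines, stood at 987, 976 and 882 CPM in Empty and 937, 1101 and 1003 CPM in TSH, with the groups overlapping.

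Of 12 genes known to respond to thyroid hormone in other tissues 3 rose and 1 fell. Thra, a thyroid hormone receptor, fell from 91.1 ± 7.73 to 58.9 ± 4.21 CPM (log2FC -0.63, SE 0.07, edgeR adjusted p = 0.000156). Hr, a corepressor and classical hormone target in brain and skin, rose from 22.2 ± 2.6 to 42.1 ± 4.58 CPM (log2FC 0.92, SE 0.12, edgeR adjusted p = 0.000261). Ucp2, an uncoupling protein of mitochondria, rose from 277 ± 14.4 to 479.6 ± 50.03 CPM (log2FC 0.79, SE 0.08, edgeR adjusted p = 5.61e-05). Gpd2, the mitochondrial glycerol phosphate dehydrogenase, rose from 75.4 ± 5.45 to 114 ± 3.84 CPM (log2FC 0.6, SE 0.08, edgeR adjusted p = 0.0004). In each of the 4 genes the groups were apart.

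Downstream of the receptor, genes of cAMP breakdown and immediate early genes were among the called members. Of 14 phosphodiesterase genes 4 rose (28.6%, against 14.8% of all genes) and 2 fell (14.3%, against 9.34%). Pde7b stood at 49.8, 55.6 and 54.4 CPM in Empty and 88.7, 103 and 98.9 CPM in TSH (log2FC 0.86, SE 0.08, edgeR adjusted p = 3.89e-05), and Pde8a and Pde4c also rose (log2FC 0.45 with adjusted p = 0.00129 and log2FC 0.96 with adjusted p = 0.00274). Pde1a, a calcium-stimulated member, fell (log2FC -0.93, SE 0.18, edgeR adjusted p = 0.00381). Of 17 genes of the Gs protein, adenylyl cyclases and kinase A 2 rose (11.8%) and 1 fell (5.88%). Both shares were below those of all genes, 14.8% higher and 9.34% lower. Those that rose were the regulatory subunit gene Prkar2b (log2FC 0.6, SE 0.14, edgeR adjusted p = 0.0106) and the anchor gene Akap12 (log2FC 0.48, SE 0.11, edgeR adjusted p = 0.00818). The member that fell was Gnas, whose overlapping transcripts make its count uncertain and whose call was lost at 7 of 17 other settings. Of 21 CREB targets and immediate early genes 7 rose and none fell. Atf3 stood at 1.4, 1.94 and 2.01 CPM in Empty and 6.17, 6.07 and 6.48 CPM in TSH (log2FC 1.81, SE 0.19, edgeR adjusted p = 6.04e-05). Fos stood at 4.59, 5.27 and 4.26 CPM in Empty and 11.5, 10.6 and 8.92 CPM in TSH (log2FC 1.13, SE 0.17, edgeR adjusted p = 0.000822). Crem, a cAMP-inducible member of the CREB family, stood at 12.1, 12.5 and 14.9 CPM in Empty and 18.3, 21.8 and 23.4 CPM in TSH (log2FC 0.69, SE 0.11, edgeR adjusted p = 0.00128). In these 3 transcription factor genes each TSH library was above each Empty library. The full CRE (TGACGTCA, its own reverse complement) was found in 2 of 16 windows of this list (12.5%), against 2.57% of tested promoters. The list holds genes chosen as CREB targets. An E2F site (TTCCCGC) was found in 3 of its windows (18.75%), against 6.55%.

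Growth factor genes were split. Of 12 members of the EGF receptor family and its ligands 5 rose and 2 fell. Erbb4, a receptor of the neuregulins, stood at 14.9, 20.1 and 11.6 CPM in Empty and 6.91, 5.64 and 5.96 CPM in TSH (log2FC -1.33, SE 0.20, edgeR adjusted p = 0.000847). Egf, a ligand of the EGF receptor, stood at 5.51, 5.58 and 4.97 CPM in Empty and 3.25, 1.9 and 2.73 CPM in TSH (log2FC -1.03, SE 0.20, edgeR adjusted p = 0.0031). Tgfa and Btc, ligands of the EGF receptor, rose (log2FC 0.45 with adjusted p = 0.00219 and log2FC 0.62 with adjusted p = 0.0029). So did Dusp6, a phosphatase induced by ERK (log2FC 0.65, SE 0.08, edgeR adjusted p = 0.000186). In the IGF system 4 of 14 rose (28.6%, against 14.8% of all genes). Igf2r, the receptor that clears IGF2, stood at 70.3, 75.9 and 65.7 CPM in Empty and 108, 123 and 125 CPM in TSH (log2FC 0.75, SE 0.08, edgeR adjusted p = 0.00012). Igfbp7, a binding protein, stood at 156, 169 and 126 CPM in Empty and 303, 361 and 301 CPM in TSH (log2FC 1.1, SE 0.13, edgeR adjusted p = 0.000186). Among 19 tested WNT pathway genes 7 rose and 1 fell, and secreted WNT inhibitors led. Sfrp4 rose from 2.58 ± 0.888 to 9.76 ± 1.46 CPM (log2FC 1.92, SE 0.24, edgeR adjusted p = 0.000265). Dkk2 rose from 3.43 ± 0.306 to 9.11 ± 1.68 CPM (log2FC 1.41, SE 0.16, edgeR adjusted p = 0.000125). Sfrp1 rose from 12.9 ± 1.58 to 24 ± 1.82 CPM (log2FC 0.9, SE 0.11, edgeR adjusted p = 0.000191). Sfrp5 was the member that fell (log2FC -0.61, SE 0.12, edgeR adjusted p = 0.0031). Of 25 TGF-beta and BMP genes 10 rose and 1 fell. The ligand gene Tgfb1 rose (log2FC 0.74, SE 0.09, edgeR adjusted p = 0.000165).

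Extracellular matrix genes rose in all 5 lists that hold them. Of 18 fibrillar collagens 14 rose (median log2FC 1.15), of 16 elastic fibre genes 13 (1.03), of 21 genes of collagen processing 18 (0.66), of 26 matricellular proteins and proteoglycans 16 (0.92) and of 24 basement membrane genes 16 (0.59). Eln, elastin, stood at 39.8, 33.4 and 39.8 CPM in Empty and 175, 195 and 171 CPM in TSH, 4.78-fold higher (log2FC 2.26, SE 0.09, edgeR adjusted p = 9.52e-08). Fbn1, fibrillin of the microfibrils, stood at 33.6, 35.9 and 29.4 CPM in Empty and 167, 138 and 163 CPM in TSH (log2FC 2.25, SE 0.10, edgeR adjusted p = 2.44e-07). Lox, the oxidase that crosslinks elastin and collagen, stood at 9.01, 8.76 and 9.68 CPM in Empty and 48.2, 57.2 and 56.7 CPM in TSH (log2FC 2.56, SE 0.11, edgeR adjusted p = 2.7e-07). In all 3 genes the libraries within a group lay close together and the groups were far apart. Among collagens Col3a1 stood at 219.6, 271 and 223 CPM in Empty and 1094, 1005 and 1113 CPM in TSH (log2FC 2.17, SE 0.10, edgeR adjusted p = 2.98e-07). Col1a1 stood at 116, 129 and 110.4 CPM in Empty and 442, 460.0 and 518 CPM in TSH (log2FC 2.0, SE 0.10, edgeR adjusted p = 5.89e-07). Col5a1, which starts fibrils, stood at 33.7, 37.4 and 31.9 CPM in Empty and 127, 131 and 133 CPM in TSH (log2FC 1.92, SE 0.09, edgeR adjusted p = 3.72e-07). All 3 collagens were apart between the groups. When skeletal muscle content was a covariate, where 13.5% of all genes were called higher and 7.54% lower, the numbers called higher were 14, 13, 18, 16 and 15 in the same order of lists.

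Enzymes and receptors of the matrix rose with it. Loxl2 and Loxl1, relatives of Lox, had log2FC 1.71 with adjusted p = 4.8e-07 and log2FC 0.94 with adjusted p = 1.94e-06. Adamts2, which trims procollagen, had log2FC 1.67 with adjusted p = 2.57e-06. Adam12, a metalloprotease of growing mesenchyme, rose from 3.21 ± 0.642 to 13.8 ± 1.68 CPM (log2FC 2.1, SE 0.17, edgeR adjusted p = 1.08e-05). Timp1, an inhibitor of matrix proteases, rose from 2.55 ± 0.616 to 9.5 ± 2.03 CPM (log2FC 1.9, SE 0.22, edgeR adjusted p = 0.000147). In the whole list of metalloproteases and inhibitors 12 of 22 rose and 1 fell, Mmp16 (log2FC -0.99, SE 0.21, edgeR adjusted p = 0.00564). Bgn, biglycan, stood at 217, 196 and 169 CPM in Empty and 489.6, 548 and 518 CPM in TSH (log2FC 1.42, SE 0.09, edgeR adjusted p = 2.89e-06). Postn, periostin, stood at 50.7, 43.5 and 56.4 CPM in Empty and 133, 128 and 139 CPM in TSH (log2FC 1.41, SE 0.08, edgeR adjusted p = 2.01e-06). Of 20 integrins 13 rose. Among them were the collagen receptor Itga1 (log2FC 1.03, SE 0.09, edgeR adjusted p = 1.97e-05) and the fibronectin receptor Itga5 (log2FC 0.79, SE 0.09, edgeR adjusted p = 0.000103). Their common partner Itgb1 rose less (log2FC 0.52, SE 0.07, edgeR adjusted p = 0.000468). In the basement membrane Col4a1 stood at 677, 660.2 and 599.8 CPM in Empty and 1455, 1665 and 1667 CPM in TSH (log2FC 1.31, SE 0.10, edgeR adjusted p = 6.64e-06). The laminin chain Lamc1 stood at 121, 125 and 114 CPM in Empty and 233, 260.0 and 284 CPM in TSH (log2FC 1.11, SE 0.09, edgeR adjusted p = 1.14e-05). Col4a4, a chain of another type IV network, fell (log2FC -0.45, SE 0.07, edgeR adjusted p = 0.000596). The summed CPM of 12 fibroblast markers was 1062, 1210.3 and 1029.5 in Empty and 2738, 2585 and 2906 in TSH, but only 5 of the 12 were called higher. Col3a1, Col1a1 and Postn, given above, are among these markers, so the sum repeats part of the collagen and matrix result.

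Some genes known from cartilage rose too. Cnmd, chondromodulin, stood at 4.85, 3.88 and 5.69 CPM in Empty and 24.6, 28.6 and 26.5 CPM in TSH (log2FC 2.46, SE 0.18, edgeR adjusted p = 1.22e-05). Of 7 tested cartilage markers 4 were higher, Acan and Comp among them, whereas Col9a1 and Col9a2 were not called (log2FC -0.66 with adjusted p = 0.125 and log2FC -1.04 with adjusted p = 0.14). The other 3 markers of the list, Col2a1, Matn1 and Matn3, had 0 counts in all 6 libraries (up to 3 counts per library allowed).

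**Figure D3:**
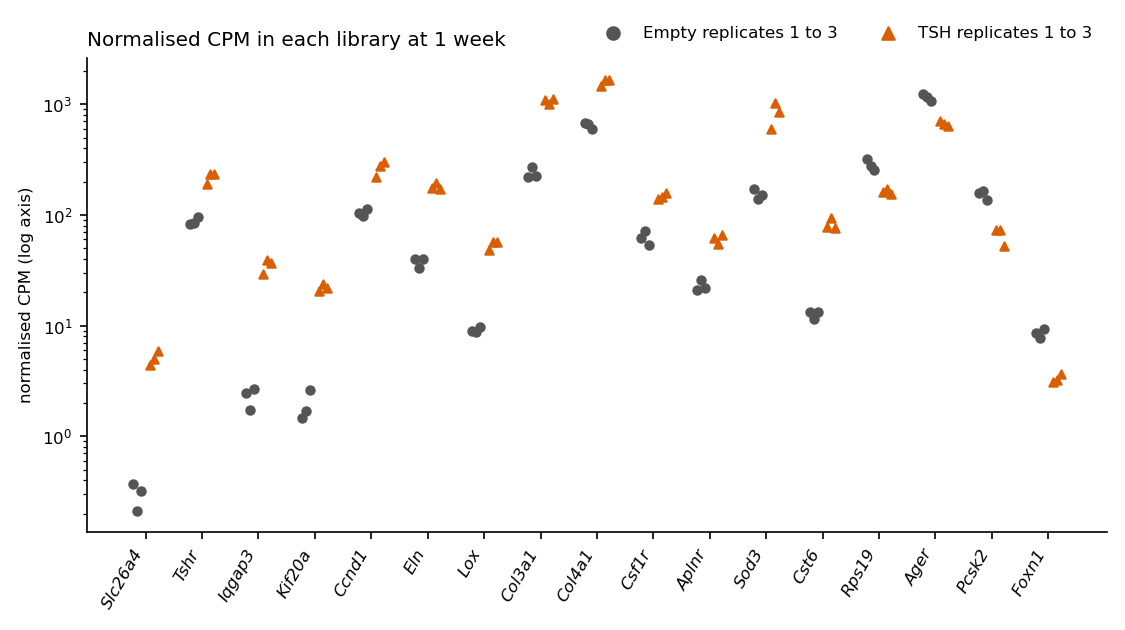
Normalised CPM (log axis) of 17 named genes in each Empty (circles) and TSH (triangles) library at 1 week. In all 17 genes the groups do not overlap, and the smallest ratio between them is that of Rps19, with 254 CPM in the lowest Empty and 172 CPM in the highest TSH library.

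Vessel genes rose by smaller folds. Of 16 endothelial markers 13 rose and 1 fell (median log2FC 0.54). Eng, endoglin, a TGF-beta coreceptor of growing vessels, stood at 145, 136 and 113 CPM in Empty and 274, 337 and 318 CPM in TSH (log2FC 1.24, SE 0.10, edgeR adjusted p = 1.48e-05). Cdh5, the junctional cadherin, stood at 60.9, 68.8 and 59.9 CPM in Empty and 102, 105 and 108 CPM in TSH (log2FC 0.73, SE 0.09, edgeR adjusted p = 0.000161). Cldn5, a claudin of tight endothelium, was the member that fell (log2FC -0.5, SE 0.15, edgeR adjusted p = 0.0282), with its call lost at 6 of 17 other settings. Of 20 genes of the VEGF, angiopoietin, apelin and adrenomedullin systems 10 rose and 1 fell. Aplnr, the apelin receptor of sprouting endothelium, stood at 20.8, 25.7 and 21.8 CPM in Empty and 61.9, 54.4 and 66 CPM in TSH (log2FC 1.42, SE 0.11, edgeR adjusted p = 8.43e-06). Its ligand gene Apln stood at 3.72, 4.09 and 3.76 CPM in Empty and 8.77, 8.06 and 10.8 CPM in TSH (log2FC 1.26, SE 0.15, edgeR adjusted p = 0.000193). Of 12 markers of pericytes and smooth muscle 6 rose. They included Pdgfrb (log2FC 1.11, SE 0.11, edgeR adjusted p = 9.16e-05) and Rgs5 (log2FC 1.2, SE 0.12, edgeR adjusted p = 0.000112). Notch3, a receptor of mural cells, rose as well (log2FC 0.94, SE 0.10, edgeR adjusted p = 0.000108). Lymphatic genes were split: Lyve1 and Flt4 rose (log2FC 0.95 with adjusted p = 0.000208 and log2FC 0.49 with adjusted p = 0.00177). Prox1, the lymphatic master regulator, fell (log2FC -0.76, SE 0.16, edgeR adjusted p = 0.00466).

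Macrophage markers rose almost as a block, 14 of 16 (median log2FC 1.13), and their summed CPM was 329, 391 and 347 in Empty and 739, 769 and 805 in TSH. Csf1r, the receptor of the growth factor CSF1, stood at 62, 70.8 and 53.6 CPM in Empty and 138, 145 and 157 CPM in TSH (log2FC 1.24, SE 0.10, edgeR adjusted p = 9.77e-06). Its ligand gene Csf1 stood at 21.3, 25.7 and 23.6 CPM in Empty and 49.1, 63.3 and 61.7 CPM in TSH (log2FC 1.3, SE 0.12, edgeR adjusted p = 3.58e-05). Mertk and Timd4, receptors for dying cells, were not called (log2FC -0.14 with adjusted p = 0.482 and log2FC 0.68 with adjusted p = 0.191). Of 18 genes of alternative and lipid associated macrophages 8 rose, led by Trem2 at 2.19, 2.21 and 2.22 CPM in Empty and 7.74, 7.91 and 6.56 CPM in TSH (log2FC 1.74, SE 0.16, edgeR adjusted p = 2.94e-05). Of 21 complement genes 15 rose, among them C1qb (log2FC 1.17, SE 0.08, edgeR adjusted p = 2.9e-06) and the anaphylatoxin receptor C3ar1 (log2FC 1.58, SE 0.15, edgeR adjusted p = 3.38e-05). The member that fell was C7 (log2FC -1.28, SE 0.32, edgeR adjusted p = 0.0216), whose call was lost at 4 of 17 other settings. Cxcl13, the chemokine that draws B cells, was lower, at 61.8, 64.4 and 56.4 CPM in Empty and 29.4, 28.4 and 21.7 CPM in TSH (log2FC -1.2, SE 0.12, edgeR adjusted p = 4.43e-05). Of 16 genes of MHC class I 8 rose, B2m among them (log2FC 0.7, SE 0.10, edgeR adjusted p = 0.000397). Of 26 interferon response genes 8 rose, such as Oas1a (log2FC 1.44, SE 0.19, edgeR adjusted p = 0.000645). The interferon count was 11 without Empty replicate 3. Of 5 tested mast cell genes the proteases Cpa3 (log2FC 1.39, SE 0.27, edgeR adjusted p = 0.00303), Cma1, Mcpt4 and Tpsb2 rose. Kit, the stem cell factor receptor, fell from 53.9 ± 6.67 to 29.6 ± 4.98 CPM (log2FC -0.86, SE 0.19, edgeR adjusted p = 0.0129). Kit lost its call at 2 of 17 other settings, Cma1 at 3, Mcpt4 at 9 and Tpsb2 at 13, and 2 of the 5 mast cell genes were called higher without Empty replicate 3.

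Redox genes were led by Sod3, the secreted superoxide dismutase. It stood at 171, 139 and 153 CPM in Empty and 599.6, 1034 and 858 CPM in TSH, 5.38-fold higher (log2FC 2.43, SE 0.23, edgeR adjusted p = 0.000306), with replicate 1 the lowest TSH library. Of 24 tested NRF2 targets and glutathione genes 14 rose and 1 fell, Gsta4 (log2FC -0.49, SE 0.10, edgeR adjusted p = 0.00414). Gclm and Gclc encode the subunits of the enzyme that makes the precursor of glutathione. Gclm rose from 23.3 ± 1.62 to 53.3 ± 8.64 CPM (log2FC 1.2, SE 0.14, edgeR adjusted p = 0.000286). Gclc rose from 28.3 ± 3.41 to 51 ± 3.77 CPM (log2FC 0.85, SE 0.10, edgeR adjusted p = 0.000132). Txnrd1, thioredoxin reductase, was higher too (log2FC 1.02, SE 0.15, edgeR adjusted p = 0.00118), as was Hmox1, haem oxygenase (log2FC 0.98, SE 0.14, edgeR adjusted p = 0.000672). Of 24 peroxidases and selenoproteins 9 rose and 5 fell. The endoplasmic reticulum peroxidase Gpx7 rose (log2FC 1.01, SE 0.13, edgeR adjusted p = 0.00026) and Prdx6 fell (log2FC -0.51, SE 0.07, edgeR adjusted p = 0.000315). Lysosomal genes, some of which degrade thyroglobulin, were also higher, with 12 of 16 cathepsins and legumain (median log2FC 0.66) and 18 of 25 other lysosomal genes (0.37). Ctsd, cathepsin D, stood at 1666, 1486 and 1577 CPM in Empty and 2653, 3784 and 3172 CPM in TSH (log2FC 1.02, SE 0.12, edgeR adjusted p = 0.000153). Ctsl stood at 615, 629.8 and 637 CPM in Empty and 1175, 1684 and 1547 CPM in TSH (log2FC 1.23, SE 0.11, edgeR adjusted p = 3.29e-05). Hexa, a hexosaminidase, stood at 221, 214 and 209 CPM in Empty and 362, 512 and 405 CPM in TSH (log2FC 0.99, SE 0.12, edgeR adjusted p = 0.000182). For these abundant enzymes the groups were apart. Ctss, a cathepsin also abundant in macrophages, rose from 53.6 ± 1.66 to 138 ± 15.2 CPM (log2FC 1.37, SE 0.10, edgeR adjusted p = 6.6e-06).

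Every one of the 30 tested cytosolic ribosomal protein genes was lower in TSH, by a small and even amount (median log2FC -0.44, range -0.80 to -0.28), where 9.34% of all genes were called lower. Rps19 stood at 320.0, 275 and 254 CPM in Empty and 162, 172 and 155 CPM in TSH (log2FC -0.8, SE 0.08, edgeR adjusted p = 5.93e-05). Rplp0, of the ribosomal stalk, stood at 1160.2, 982 and 1085 CPM in Empty and 786, 840.3 and 852 CPM in TSH (log2FC -0.38, SE 0.07, edgeR adjusted p = 0.00314). Relative to the mean of the Empty libraries, the median of the 30 genes was 1.09, 0.955 and 0.946 in Empty and 0.727, 0.745 and 0.747 in TSH. All 30 were lower without Empty replicate 3 and with the muscle score as a covariate. These genes have near-identical processed copies in the genome, so single values are uncertain. Another 43 ribosomal protein genes, all averaging 100 CPM or more, counted after the list's result was seen, gave 42 lower and a median log2FC of -0.45. Ribosomal protein messages are short. Of 51 other genes of that abundance with a longest transcript of up to 1000 bases, 5 (9.80%) were lower (median log2FC 0.01). Among all 1394 other genes at that level, 9.33% were lower. Median length was 765 bases for these 51 genes, but 1114.5 for the 30 ribosomal protein genes and 1106 for the other 43. In the next longer class, 204 genes with a median of 1663.5 bases, 18 (8.82%) were lower. The part of transcript length in the fall was not tested. The share of counts from 18S ribosomal RNA, a leftover of mRNA selection, was 1.41%, 1.63% and 1.62% in Empty and 0.912%, 0.652% and 1.26% in TSH, and its part in this result was not tested. Genes that build ribosomes, 20 aminoacyl tRNA synthetases and 22 proteasome genes had 1, 1 and 0 lower members (medians -0.06, -0.01 and 0.05).

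**Figure D4:**
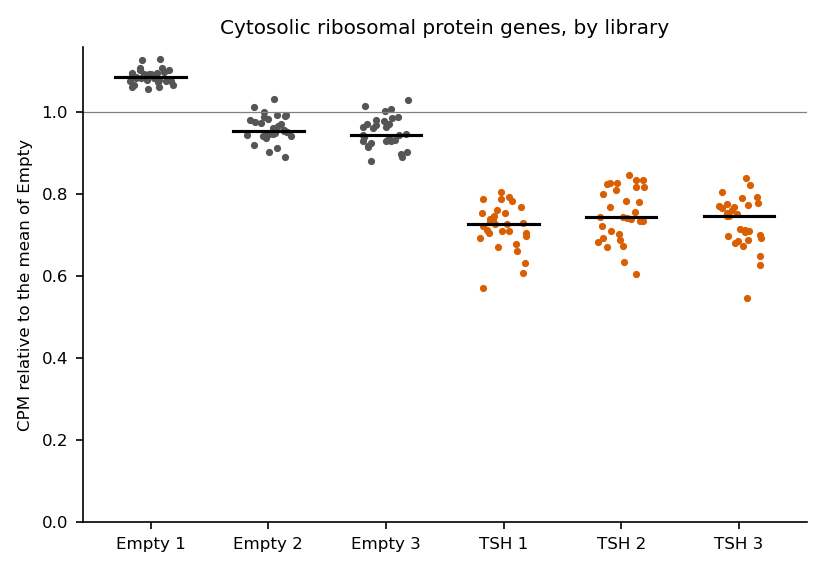
CPM of the 30 cytosolic ribosomal protein genes (points) relative to each gene's mean over the Empty libraries, by library, with the median as a bar. The medians are 0.946 to 1.09 in Empty and 0.727 to 0.747 in TSH, and no point of a TSH library exceeds 0.847.

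Energy and lipid genes went both ways. Of 30 nuclear respiratory chain subunits 5 fell (16.7%, against 9.34% of all genes) and 1, Cox6c, rose (median log2FC -0.11). Cox6c lost its call at 3 of 17 other settings. Without Empty replicate 3, 3 of the 30 were called lower, near the share of all genes at that setting (9.75%). Ndufa2 of complex I stood at 60.3, 53.4 and 51.1 CPM in Empty and 42, 40.3 and 37.3 CPM in TSH (log2FC -0.46, SE 0.08, edgeR adjusted p = 0.00194). Of 14 fatty acid synthesis genes 5 fell and 3 rose. The ones that fell included Acly, which makes cytosolic acetyl-CoA (log2FC -0.58, SE 0.10, edgeR adjusted p = 0.00146), and Acaca, acetyl-CoA carboxylase (log2FC -0.64, SE 0.13, edgeR adjusted p = 0.0067). The regulator Srebf1 was lower too (log2FC -0.43, SE 0.08, edgeR adjusted p = 0.00224). The ones that rose were the elongases Elovl1, Elovl5 and Elovl6. Elovl5 lost its call at 1 and Elovl6 at 4 of 17 other settings. Cpt1a, which admits fatty acids to mitochondria, rose from 108 ± 10.1 to 160.5 ± 24.6 CPM (log2FC 0.58, SE 0.10, edgeR adjusted p = 0.00222). Of 18 circadian clock genes 6 fell and 1 rose. Npas2 and Clock, partners of Arntl, were lower (log2FC -0.73 with adjusted p = 0.00467 and log2FC -0.37 with adjusted p = 0.00809). Arntl itself was lower (log2FC -0.5, SE 0.16, edgeR adjusted p = 0.0435). Clock lost its call at 3 and Arntl at 10 of 17 other settings. The hour of dissection is not given in the labels used here.

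Genes of phosphate transport and carbonic anhydrases were split. Slc34a2, a sodium phosphate cotransporter of apical membranes, stood at 0.395, 0.455 and 1.22 CPM in Empty and 16.5, 37.1 and 49.3 CPM in TSH (log2FC 5.62, SE 0.82, edgeR adjusted p = 0.00411). The TSH values varied, with replicate 1 the lowest, yet all were far above the Empty libraries. Its relatives diverged: Slc20a1 rose (log2FC 0.91, SE 0.15, edgeR adjusted p = 0.00182) and Slc20a2 fell from 82.4 ± 6.34 to 51.7 ± 3 CPM (log2FC -0.67, SE 0.07, edgeR adjusted p = 0.0001). Among 12 tested carbonic anhydrases 4 rose (33.3%, against 14.8% of all genes) and 1 fell (8.33%, against 9.34%). Among those that rose were Car4 (log2FC 0.96, SE 0.11, edgeR adjusted p = 0.000113), Car13 (log2FC 0.7, SE 0.09, edgeR adjusted p = 0.000199) and Car2 (log2FC 0.6, SE 0.10, edgeR adjusted p = 0.00112).

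Apart from the lists, the smallest p belonged to Cst6, cystatin M, an inhibitor of cysteine proteases. It stood at 13.4, 11.5 and 13.4 CPM in Empty and 77, 94.1 and 76.8 CPM in TSH, 6.47-fold higher (log2FC 2.69, SE 0.10, edgeR adjusted p = 9.52e-08). Fstl1, a secreted follistatin-like glycoprotein, stood at 42, 50.6 and 41.3 CPM in Empty and 157, 154 and 154 CPM in TSH (log2FC 1.8, SE 0.09, edgeR adjusted p = 5.3e-07). Svep1, a large adhesion protein, stood at 20.6, 20.4 and 17.6 CPM in Empty and 66.6, 59.9 and 58 CPM in TSH (log2FC 1.65, SE 0.10, edgeR adjusted p = 1.67e-06). Heg1, of endothelial junctions, stood at 47.4, 52.5 and 55.8 CPM in Empty and 114, 130.2 and 132 CPM in TSH (log2FC 1.27, SE 0.08, edgeR adjusted p = 2.57e-06). All of these genes were apart between the groups. Scg5 (7B2), a chaperone of the convertase PC2, rose from 123 ± 12.6 to 295 ± 26.6 CPM (log2FC 1.27, SE 0.09, edgeR adjusted p = 5.9e-06), while the convertase gene Pcsk2 itself fell. Gdf15, a stress cytokine, is a member of 2 lists, p53 targets and the ATF4 and integrated stress response. Of the p53 targets 9 of 22 rose (40.9%) and 3 fell (13.6%). Of the tested ATF4 list 3 of 21 rose (14.3%) and 1 fell (4.76%), against 14.8% and 9.34% of all genes. Gdf15 stood at 9.43, 12 and 9.02 CPM in Empty and 80.7, 154 and 93.3 CPM in TSH (log2FC 3.43, SE 0.39, edgeR adjusted p = 0.00145). Bcat1, a branched-chain aminotransferase, stood at 2.19, 1.45 and 2.7 CPM in Empty and 17.3, 26.6 and 26.9 CPM in TSH (log2FC 3.47, SE 0.34, edgeR adjusted p = 0.000319).

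Neuroendocrine markers fell. Of 12 tested C cell markers 9 fell and 1 rose (median log2FC -1.03). Calca, calcitonin, stood at 496, 463 and 445 CPM in Empty and 258, 265 and 162 CPM in TSH (log2FC -1.04, SE 0.20, edgeR adjusted p = 0.00817). Pcsk2 and Pcsk1 are the convertases of prohormones. Pcsk2 stood at 159, 165 and 137 CPM in Empty and 72.6, 73.6 and 52 CPM in TSH (log2FC -1.22, SE 0.15, edgeR adjusted p = 0.000609). Pcsk1 stood at 46.5, 49.9 and 41.6 CPM in Empty and 24, 25.1 and 18.7 CPM in TSH (log2FC -1.02, SE 0.12, edgeR adjusted p = 0.000217). Ret, the member that rose, stood at 83.1, 84.7 and 84.5 CPM in Empty and 109.8, 124 and 118 CPM in TSH (log2FC 0.48, SE 0.07, edgeR adjusted p = 0.000536). The summed parathyroid markers given above, which share a member with the C cell list, were also lower in each TSH library. Several of these secretory granule genes are known in parathyroid cells as well. The part of parathyroid content in the fall was not tested.

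Genes with other roles that fell included an enzyme, a receptor and a transcription factor with large changes. Ptgds, a prostaglandin D synthase, stood at 10.3, 13.5 and 11.4 CPM in Empty and 2.63, 1.75 and 2.52 CPM in TSH (log2FC -2.35, SE 0.19, edgeR adjusted p = 1.14e-05). Hpgds, the synthase of haematopoietic cells, rose (log2FC 1.34, SE 0.15, edgeR adjusted p = 0.000132). Inmt, a methyltransferase, stood at 13.3, 22 and 11.7 CPM in Empty and 4.49, 2.12 and 2.83 CPM in TSH (log2FC -2.32, SE 0.30, edgeR adjusted p = 0.00055). Cckar, a cholecystokinin receptor, stood at 16, 20.6 and 21.5 CPM in Empty and 6.06, 4.44 and 5.17 CPM in TSH (log2FC -1.89, SE 0.29, edgeR adjusted p = 0.00192). Foxn1, the transcription factor of thymic epithelium, stood at 8.56, 7.67 and 9.39 CPM in Empty and 3.1, 3.25 and 3.67 CPM in TSH (log2FC -1.35, SE 0.17, edgeR adjusted p = 0.00026). Its level in Empty replicate 3, where thymocyte transcripts were found, was close to that of the other Empty libraries. Ager, the receptor for advanced glycation end products, was among the most abundant genes that fell, at 1231, 1163 and 1079.9 CPM in Empty and 704, 667 and 639 CPM in TSH (log2FC -0.79, SE 0.10, edgeR adjusted p = 0.000179). Cldn6, a claudin, fell (log2FC -0.89, SE 0.15, edgeR adjusted p = 0.00131), one of 5 among 20 genes of tight junctions and adhesion.

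The 4-week libraries, which share none with these, tested the same contrast in other samples: 1478 genes were higher (8.52%) and 974 lower (5.61%) of 17355. Among 16742 genes tested at both times, 962 genes were called higher at both, 38.7% of those called at 1 week and 65.3% of those called at 4 weeks. For lower genes it was 369, or 23.4% and 38.4%. Muscle content differed between the groups at 4 weeks: the mean log2 CPM of the 18 muscle markers was 8.91, 7.56 and 8.76 in Empty and -0.85, 6.27 and 5.61 in TSH. With that score as a covariate in both fits, 600 genes were called in the same direction at both times, against 1331 without it. Opposite calls were few: 6 genes called higher at 1 week were lower at 4 weeks, and 6 went the other way. The difference of the effect itself was called for 239 of 17715 genes (1.35%), and for 27 of the 159 genes named here that were tested at both times. In all 27 of these the effect was smaller at 4 weeks, but most of these genes were named for their 1-week values, which favours that order. With the muscle score as a covariate the difference was called for 16 of the 159 named genes. Eln had a log2FC of 0.87 at 4 weeks (difference -1.38, SE 0.13, adjusted p = 1.31e-05), Col1a1 0.89 (difference -1.1, adjusted p = 0.00169) and Iqgap3 2.26 (difference -1.67, adjusted p = 0.00202). Adam12 had 2.1 at 1 week and 0.17 at 4 weeks (adjusted p of the difference 0.00266). Slc5a5 was 0.87 at 1 week and -0.74 at 4 weeks (adjusted p of the difference 0.0439), a call that was lost with that covariate, and Ptgds -2.35 and -0.25 (0.00223). Csf1r and Cx3cr1, macrophage receptors, had close values, 1.24 and 1.25 for the former and 1.26 and 1.39 for the latter, with adjusted p of the difference 0.99 and 0.772. Ribosomal protein genes had a median of -0.37 at 4 weeks, with 6 of 30 called lower, and 20 of 26 interferon response genes were called higher. The differences of these counts between times were not tested.

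**Figure D5:**
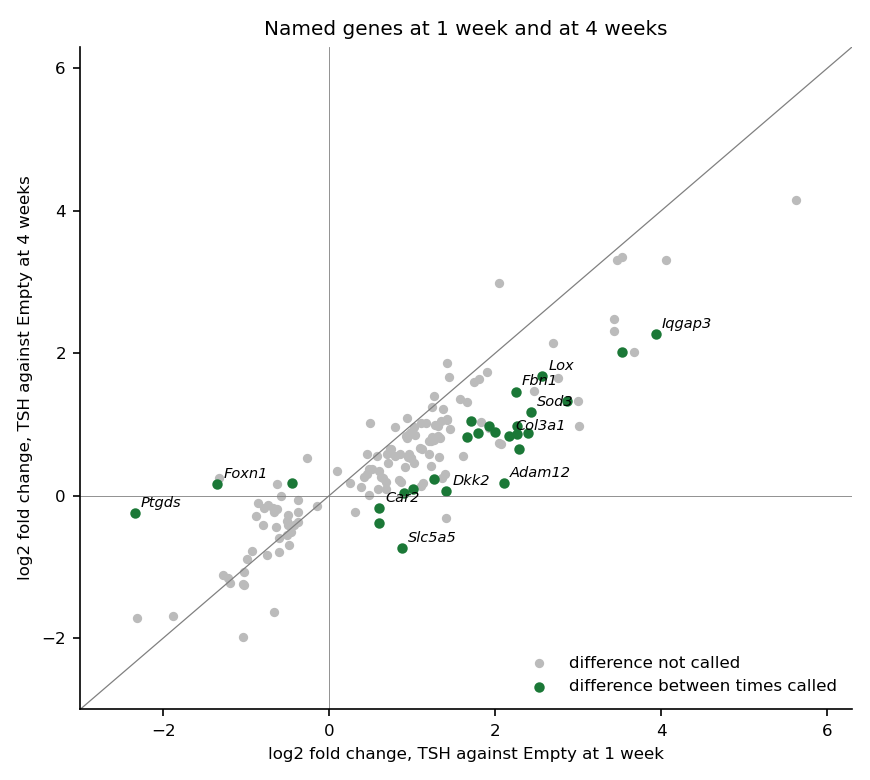
log2 fold change of the 159 named genes in TSH against Empty at 1 week (horizontal) and at 4 weeks (vertical), with the line of equal values, and in green the 27 genes whose difference between times was called. Most green points lie under the line on the right, and 5 of the 27 change sign, Slc5a5 and Foxn1 among them.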

How the data were processed

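The libraries were stranded poly(A) RNA sequencing of thyroid gland. Per the submitters' processing notes, reads passed FastQC 0.11.7, Trimmomatic 0.38, HISAT2 2.1.0 and StringTie 2.1.3b on the mouse build mm10, with no role stated for each tool. The authors deposited a table of raw read counts per gene and FPKM values, which they had computed per gene length and library. From the counts, edgeR 4.0.16 (R 4.3.3) was run on the 9 libraries of 1 week, with filterByExpr, TMM scaling and the robust quasi-likelihood test, adjusted by Benjamini-Hochberg at 0.05 over 16956 of 45777 genes. The 12 libraries of 4 weeks were fitted alike, and all 21 gave the test of the difference between times. CPM values are scaled by TMM. The fit was tested on simulated data. The FPKM values were used in limma 3.58.1 on log2(FPKM + 1), and DESeq2 1.42.0 was an alternative, beside other scalings and filters, a muscle covariate, a replicate block and each library left out. The 21 deposited columns of TPM values were not used.

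Gene lists and members were chosen with earlier results of these data known. Named genes were a set of thyroid genes, up to 4 members per list by smallest p, the 12 highest and 12 lowest fold changes at a mean CPM of at least 5 with groups apart, 10 genes outside the lists by smallest p, and the 8 most abundant called genes per direction. Fewer were printed for space. Outside that rule, and chosen after their values were seen, were Rag1, Rrm2, Uhrf1, Cdkn1c, Dio3, Sfrp5, Mmp16, Col4a4, Col9a1, Col9a2, Col2a1, Matn1, Matn3, Cldn5, Mertk, Timd4, C7, Tpsb2, Gsta4, Elovl5, Elovl6, Arntl and Calca. Some genes are not reported here.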

Additional observations from a re-analysis of the deposited data

Results flagged for a closer look

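For 27 of the 159 named genes tested at both times, the effect of TSH against Empty differed between 4 weeks and 1 week by the edgeR test of the difference itself, adjusted over all genes. Values are the log2 fold change at 4 weeks minus that at 1 week. Among division genes the effect differed for Iqgap3 by -1.67, Aurka by -1.63, Ckap2l by -1.54, Sgo2a by -1.52, Kif20a by -1.50 and Foxm1 by -1.28. Among collagens and fibre genes the effect differed for Eln by -1.38, Col3a1 by -1.33, Col1a1 by -1.10, Col5a1 by -0.94, Lox by -0.88, Adamts2 by -0.83, Fbn1 by -0.79 and Loxl2 by -0.66. Among other matrix and secreted factors the effect differed for Adam12 by -1.93, Dkk2 by -1.35, Apln by -1.03, Fstl1 by -0.91 and Sfrp1 by -0.86. Among enzymes, transporters and kinase subunits the effect differed for Slc5a5 by -1.61, Sod3 by -1.26, Prkar2b by -0.99, Gpx7 by -0.92 and Car2 by -0.78. In the other direction, the values of genes that were lower at 1 week moved up, by 2.11 for Ptgds, 1.51 for Foxn1 and 0.63 for Col4a4. With the skeletal muscle score as a covariate, a difference was called for 16 named genes, and muscle content was lower in each TSH than in each Empty library at 4 weeks. The part of muscle in these differences was not tested otherwise.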

How the results depend on the processing

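Results were recomputed under 17 other settings. The number of genes higher at 1 week lay between 1795 and 2642 and stayed within 1.5 times of 2510, with 1795 to 2431 when 1 library was left out. The number lower, 1584, was 854 to 1683 when 1 library was left out, and 951 with limma on log2(FPKM + 1) without a filter. The 1331 genes called in the same direction at both times became 675 with that limma fit, 600 with the skeletal muscle score as a covariate, and 839 to 1359 when 1 library was left out, 839 without TSH replicate 3 of 4 weeks. Of the named genes, the 27 with a called difference between times became 40 with DESeq2 and 16 with the muscle covariate. For these, the cause was not tested. Of 151 called named genes, 136 kept an adjusted p under 0.05 at every setting where they were tested. Mertk, which was not called, lay between -0.24 and 0.013 when 1 library was left out, turning positive without Empty replicate 2.

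Deviations from the group mean correlated at r of -0.0207, -0.0673 and 0.267 between replicates with the same number. Those of unlike number ranged from -0.372 to 0.358. With 3 libraries per group these values cannot show whether the numbers pair the libraries. With the replicate block, 2340 genes were higher and 1492 lower at 1 week, and 1272 were shared between times. Depth was 33962440 to 50646491 counts per library, and genes under the filter on low counts were not tested. With 3 libraries per group, the muscle, thymocyte and parathyroid content of single libraries weighs on every spread.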
